A study of Mus musculus with 6 samples.

Results

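The dual specificity phosphatases that inactivate mitogen-activated protein (MAP) kinases were examined in mouse microglia that had been kept with neutrophils. The genes were chosen by name as Dusp1, Dusp2, Dusp4, Dusp5, Dusp6, Dusp7, Dusp8, Dusp10 and Dusp16, and all 9 were found by symbol among the 55335 gene identifiers of the table. The remaining gene of the family, Dusp9, was listed at 0 in all 6 libraries. Primary microglia came from the brains of neonatal C57BL/6 mice with an intact Cd177 gene and were shaken off mixed glial cultures on day 14. They were co-cultured for 24 h with neutrophils that magnetic sorting had recovered from the injured spinal cord of adult mice at 3 days post injury (dpi), and were then flow-sorted as Ly6G-negative cells. The neutrophils came from Cd177 WT mice in 3 libraries and from Cd177 KO mice, which lack this neutrophil surface protein, in the other 3. No group without neutrophils belongs to the design, and the sources do not say if replicate libraries stem from different cultures or animals, so the spread between them may be technical.

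MAP kinases are switched on by phosphorylation of a threonine and a tyrosine in the activation loop, and the MAP kinase phosphatases remove both phosphates. Many of them are transcribed in response to the same kinases, so that they form a negative feedback on ERK, p38 and JNK signalling. Dusp1, Dusp2, Dusp4 and Dusp5 encode inducible nuclear enzymes, Dusp6 and Dusp7 encode cytoplasmic enzymes that prefer ERK, and Dusp8, Dusp10 and Dusp16 encode enzymes that prefer JNK and p38. In macrophages and microglia these kinases drive cytokine production after inflammatory stimuli.

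Transcript levels are given as FPKM, fragments mapped to a gene relative to its transcript length and to the depth of the library, and so can be compared between genes. Changes are KO minus WT differences of log2(FPKM + 1) from limma, a linear model fitted to all 11395 genes averaging 1 FPKM or more, with Benjamini-Hochberg adjustment over these genes and a call at an adjusted p under 0.05. Counts were not used here, and the smallest steps between low values put the depth at roughly 15600000 to 19200000 fragments per library. Libraries of the same arm were close, with Pearson's r of 0.988 to 0.989 across genes, against 0.957 to 0.959 between arms. The macrophage transcripts Cd68 and Tyrobp were abundant, but only 8 of 15 microglia and macrophage markers had a mean of at least 1 FPKM, and C1qa, Fcrls and Sall1 were listed at 0 in all 6 libraries. P2ry12, a marker of homeostatic microglia, was at most 0.148 FPKM in any library. Cd177 itself was low against a detection floor of 3 fragments (at most 0.071 FPKM), with 0.477, 0.113 and 0.151 FPKM in the WT arm and 0.109, 0.022 and 0.084 FPKM in the KO arm. WT replicate 1 stood well above the floor and the other libraries held few fragments, so Cd177 gives no firm check of the neutrophil genotype. The summed level of the 15 microglia and macrophage markers was 781 to 820 FPKM in the WT arm and 919 to 957 FPKM in the KO arm, but its members went both ways. Cd68 went from between 363 and 377 FPKM in the WT arm to between 481 and 505 FPKM in the KO arm, and Trem2 from between 11.2 and 13.2 FPKM to between 27.5 and 28.2 FPKM. The macrophage marker Adgre1 went from between 99.7 and 104 FPKM down to between 37.5 and 40.4 FPKM, and the microglia marker Cx3cr1 from between 2.41 and 2.98 FPKM down to between 0.956 and 1.43 FPKM. The summed level of 15 neutrophil markers was 118 to 122 FPKM in the WT arm and 1.81 to 2.64 FPKM in the KO arm. In the WT arm almost all of it was Lcn2 and Mmp9, which macrophages also express. In the KO arm Lcn2 was at 0.048 to 0.314 FPKM and Mmp9 at 0.770 to 1.13 FPKM, and the other markers made up a large part. Without Lcn2 and Mmp9 the sums were 2.03 to 2.30 FPKM in the WT arm and 0.791 to 1.28 FPKM in the KO arm. Of the 15, 6 were listed at 0 in every library (Ly6g, S100a9, Mpo, Elane, Ltf and Retnlg). Of the rest, Cxcr2 and Mmp8 overlapped between the arms, at 0.346 to 0.626 against 0.148 to 0.399 FPKM and at 0.024 to 0.302 against 0.108 to 0.172 FPKM, and Ngp was above 0 only in KO replicate 2 (0.043 FPKM). Low but higher in the WT arm were Csf3r at 0.546 to 0.744 against 0.223 to 0.399 FPKM, S100a8 at 0.310 to 0.456 against 0 to 0.181 FPKM and Camp at 0.234 to 0.384 against 0 to 0.156 FPKM. The part of these marker differences in the results was not tested. Markers of astrocytes, oligodendrocytes and fibroblasts summed to at most 0.400 FPKM over 16 genes, and those of lymphocytes and endothelium to at most 0.402 FPKM over 11 genes. As in any bulk sample, fewer cells of a type and less RNA per cell cannot be told apart.

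Of the 9 phosphatase genes, 7 passed the filter on low values, and with KO neutrophils 5 of them were lower (Dusp1, Dusp2, Dusp4, Dusp5 and Dusp16) and 2 were higher (Dusp6 and Dusp7). Over all genes tested 43.3% were called, 18.8% lower and 24.5% higher. The lower genes included every inducible nuclear member, and the higher genes were the cytoplasmic ERK phosphatases. Dusp8 and Dusp10 had means of 0.929 and 0.786 FPKM over the 6 libraries and did not enter the fit. In all 9 genes the WT and KO libraries did not overlap, which was also so for 55.8% of all genes tested.

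**Figure D1:**
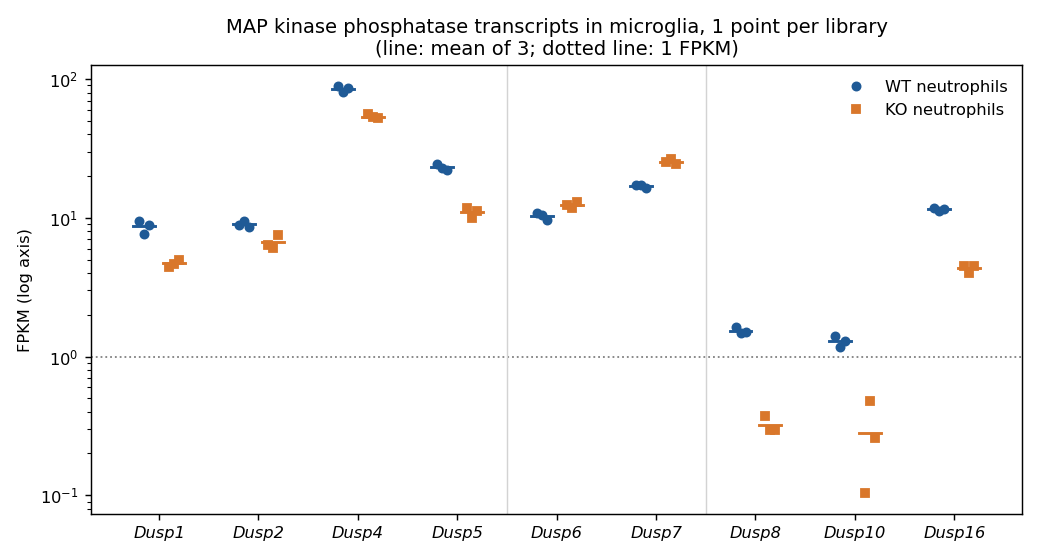
FPKM of the 9 phosphatase genes (log axis) in each of 3 libraries with WT (circles) and 3 with KO neutrophils (squares), with a line at the mean of each arm. The arms do not overlap for any gene, and Dusp6 and Dusp7 alone are higher with KO neutrophils.

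The promoters of the members are shown first, as RefSeq windows (GRCm38.p6) from 250 bases before to 50 bases after the transcription start. A window was found for 8 of the 9 genes, all but Dusp4. Of these, 6 follow, on the strand of the gene, for members that fell and that rose, with capitals marking matches to the core of the cAMP response element (CRE; TGACG, either strand) and, in Dusp5, to the CArG box that serum response factor binds. The Dusp1 window is chr17:26508423-26508722, Dusp5 chr19:53528895-53529194, Dusp8 chr7:142095235-142095534, Dusp16 chr6:134792579-134792878, Dusp6 chr10:99262981-99263280 and Dusp7 chr9:106368382-106368681. Dusp1, Dusp8 and Dusp16 lie on the minus strand and the other 3 on the plus strand.
Dusp1: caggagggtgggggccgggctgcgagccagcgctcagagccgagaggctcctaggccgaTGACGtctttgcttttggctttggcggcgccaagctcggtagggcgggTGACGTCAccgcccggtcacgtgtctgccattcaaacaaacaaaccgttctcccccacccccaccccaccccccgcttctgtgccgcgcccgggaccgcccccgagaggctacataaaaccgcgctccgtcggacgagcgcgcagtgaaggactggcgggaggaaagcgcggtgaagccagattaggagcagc
Dusp5: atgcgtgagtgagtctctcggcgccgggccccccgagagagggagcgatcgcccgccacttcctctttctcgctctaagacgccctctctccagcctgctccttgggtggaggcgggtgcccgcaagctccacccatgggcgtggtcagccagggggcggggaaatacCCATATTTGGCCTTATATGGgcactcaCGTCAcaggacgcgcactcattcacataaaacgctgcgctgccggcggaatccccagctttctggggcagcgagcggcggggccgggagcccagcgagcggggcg
Dusp8: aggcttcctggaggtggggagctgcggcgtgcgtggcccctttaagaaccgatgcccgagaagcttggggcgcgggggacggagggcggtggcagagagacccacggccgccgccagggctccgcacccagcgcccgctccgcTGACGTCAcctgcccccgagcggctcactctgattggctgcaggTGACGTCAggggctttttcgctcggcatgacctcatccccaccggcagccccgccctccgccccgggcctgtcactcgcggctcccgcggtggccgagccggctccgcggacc
Dusp16: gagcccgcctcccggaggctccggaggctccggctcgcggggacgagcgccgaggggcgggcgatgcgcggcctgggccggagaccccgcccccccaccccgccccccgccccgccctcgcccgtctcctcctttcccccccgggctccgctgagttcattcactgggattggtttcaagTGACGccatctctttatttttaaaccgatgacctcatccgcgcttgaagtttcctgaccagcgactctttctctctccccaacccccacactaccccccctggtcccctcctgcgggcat
Dusp6: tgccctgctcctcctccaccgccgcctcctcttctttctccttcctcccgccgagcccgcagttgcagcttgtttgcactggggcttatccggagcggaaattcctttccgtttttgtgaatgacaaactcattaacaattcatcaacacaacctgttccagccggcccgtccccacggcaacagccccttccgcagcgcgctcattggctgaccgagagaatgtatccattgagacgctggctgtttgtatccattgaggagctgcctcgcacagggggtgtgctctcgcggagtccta
Dusp7: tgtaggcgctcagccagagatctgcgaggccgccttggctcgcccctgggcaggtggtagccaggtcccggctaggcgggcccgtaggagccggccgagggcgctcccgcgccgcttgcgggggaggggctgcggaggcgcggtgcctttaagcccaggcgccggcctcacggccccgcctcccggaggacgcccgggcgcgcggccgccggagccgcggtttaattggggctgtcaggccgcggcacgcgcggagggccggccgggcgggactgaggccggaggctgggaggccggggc

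A CRE core was found in the windows of Dusp1, Dusp2, Dusp5, Dusp8 and Dusp16, that is in 5 of 8, and in 20.8% of all 32851 promoter windows. It was found in neither Dusp6 nor Dusp7, and not in Dusp10. The full palindrome TGACGTCA, which contains the core on each strand, was present at -143 in Dusp1 and at -107 and -63 in Dusp8, and in 1.8% of all windows. In Dusp5, 2 CArG boxes lay side by side at -82 and -72, a motif held by 1.6% of all windows. The E-box CACGTG was present in Dusp1 and Dusp2 (7.2% of all windows), and the GC box GGGCGG in 7 of 8 windows, all but Dusp6 (35.7% of all windows). No window of the 8 held the AP-1 site TGANTCA, the TATA box TATAAA, the ETS core CCGGAA or the NF-kB motif, which were in 7.8%, 13.6%, 14.9% and 8.5% of all windows. The windows were rich in G and C, from 57.3% in Dusp6 to 78.7% in Dusp7, with a median of 67.8% against 52.7% over all windows. The part of base composition in these matches was not tested. The motifs were chosen with the values known, and a match is a description of letters, not of binding.

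**Figure D2:**
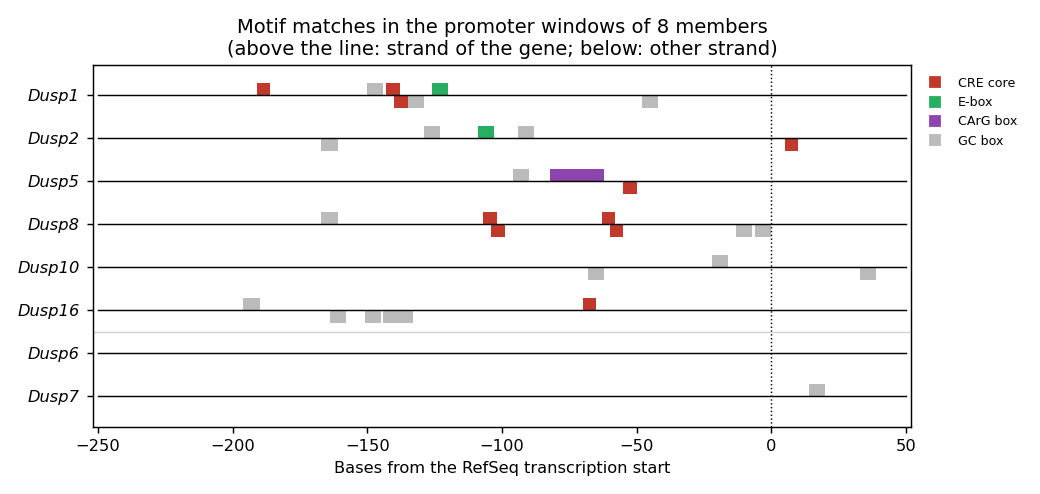
Positions of motif matches in the promoter windows of 8 members, in bases from the RefSeq transcription start (dotted line), above the line on the strand of the gene and below it on the other strand. CRE cores appear in 5 of the 6 members with a lower KO mean and in neither Dusp6 nor Dusp7 (bottom rows).

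The inducible nuclear enzymes are taken first. Dusp4 (ENSMUSG00000031530, chromosome 8, 34807297 to 34819894, GRCm38, with all gene positions from GENCODE M21), which acts on ERK and JNK in the nucleus, was the most abundant member by far. It had 89.5, 81.2 and 85.6 FPKM in the WT arm and 55.6, 53.1 and 52.1 FPKM in the KO arm. Its log2 change was -0.66 (adjusted p = 6.45e-05 by limma, SE 0.043), and in FPKM the WT mean was 1.59 times the KO mean. Dusp5 (ENSMUSG00000034765, chromosome 19, 53529109 to 53542431), a nuclear phosphatase that binds ERK only and whose window holds the paired CArG boxes shown above, had 24.2, 22.7 and 22.3 FPKM against 11.8, 10.05 and 11.3 FPKM. Every KO library thus lay far under the lowest WT library. The change of -1.003 (adjusted p = 5.70e-05 by limma, SE 0.063) corresponded to a WT to KO ratio of mean FPKM of 2.09 and sat on the study's threshold, a fold above 2 at unadjusted p below 0.05, which 2.57% of all genes tested passed, 2.02% downward and 0.553% upward. Leaving out 1 library at a time moved the change of Dusp5 between -1.05 and -0.94, and on this scale, which the pseudocount of 1 shrinks, it fell short of 2-fold without WT replicate 1 (-0.97) and without KO replicate 2 (-0.94). With a pseudocount of 0.1 and all 6 libraries it was -1.06.

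Dusp1 (ENSMUSG00000024190, chromosome 17, 26505590 to 26562128), the glucocorticoid-inducible phosphatase that restrains p38 and JNK in macrophages, had 9.49, 7.62 and 8.89 FPKM in the WT arm. The KO arm held 4.45, 4.64 and 4.97 FPKM, a log2 change of -0.76 (adjusted p = 0.000609 by limma, SE 0.082). The widest gap inside an arm was between WT replicates 1 and 2, and it was smaller than the gap between the arms. The annotated gene spans 56539 bp, so that the RefSeq start shown above lies inside it, and its exons overlap Ergic1 on the opposite strand. Ergic1 had 9.84 to 15.9 FPKM in the WT arm and 18.0 to 18.5 FPKM in the KO arm. The counting is not stated to use strand, so reads of this pair cannot be told apart where they overlap.

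Dusp2 (ENSMUSG00000027368, chromosome 2, 127336159 to 127338376), first known as a phosphatase of activated lymphocytes, changed least of the nuclear members. Its FPKM was 8.91, 9.45 and 8.65 in the WT arm and 6.33, 6.02 and 7.58 in the KO arm (log2 change -0.39, adjusted p = 0.00978 by limma, SE 0.082). KO replicate 3 was the library closest to the WT arm. Taken as a group, the 4 nuclear genes summed to 132, 121 and 125 FPKM in the WT arm and 78.2, 73.8 and 75.9 FPKM in the KO arm.

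Among the phosphatases that prefer JNK and p38, Dusp16 (ENSMUSG00000030203, chromosome 6, 134715468 to 134792625), which binds JNK and shuttles between nucleus and cytoplasm, had 11.8, 11.1 and 11.6 FPKM in the WT arm. It fell to 4.47, 4.00 and 4.496 FPKM in the KO arm. This change of -1.23 (adjusted p = 1.05e-05 by limma, SE 0.053) was the largest of the tested members, and 1.43% of all genes tested fell as far. Dusp16 passed the study's threshold in the fit with all 6 libraries and in each fit that left out 1 of them.

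Dusp8 and Dusp10 were scarce. Dusp8 (ENSMUSG00000037887, chromosome 7, 142079490 to 142095843), known mainly from brain and heart and the member with 2 full CRE palindromes, had 1.63, 1.47 and 1.51 FPKM in the WT arm and 0.370, 0.296 and 0.296 FPKM in the KO arm. The WT mean was 4.80 times the KO mean (two-sided p = 0.1 by exact permutation of FPKM, which 3 libraries against 3 cannot undercut). Dusp10 (ENSMUSG00000039384, chromosome 1, 184013302 to 184075636), which acts on p38 and JNK, had 1.41, 1.179 and 1.29 FPKM against 0.103, 0.476 and 0.259 FPKM, a WT to KO ratio of means of 4.63 (two-sided p = 0.1 by exact permutation). This ratio was 7.14 without KO replicate 2 and 3.52 without KO replicate 1. In the KO arm Dusp10 scattered widely, with a coefficient of variation of 67.0%, and replicate 1 held few fragments, about 4.58 by the longest coding transcript and under a floor of 3 fragments (0.261 FPKM) by the shortest. Without the filter on low values, where 17.9% of 25195 genes were called and 8.13% were called lower, both genes were called, Dusp8 with a log2 change of -0.94 (adjusted p = 0.000426 by limma, SE 0.064) and Dusp10 with -0.85 (adjusted p = 0.00657 by limma, SE 0.12). The pseudocount of 1 makes these changes smaller than the FPKM ratios. The exons of Dusp8 overlap those of Gm32786 on the opposite strand, which was listed at 0 in all libraries.

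The cytoplasmic ERK phosphatases moved the other way. Dusp7 (ENSMUSG00000053716, chromosome 9, 106368632 to 106375724) had 17.3, 17.2 and 16.3 FPKM in the WT arm and 25.3, 26.5 and 24.5 FPKM in the KO arm. Its change of 0.56 (adjusted p = 0.000105 by limma, SE 0.04) was larger than the spread within either arm, and 4.22% of all genes tested rose as far. Dusp6 (ENSMUSG00000019960, chromosome 10, 99263231 to 99267489), a feedback inhibitor of ERK that its own target kinase induces, had 10.8, 10.5 and 9.58 FPKM against 12.4, 11.8 and 12.9 FPKM. The change of 0.24 (adjusted p = 0.0145 by limma, SE 0.056) was the smallest of the tested members and the least firm, since its adjusted p was 0.0475 without KO replicate 3 and 0.0463 with the replicate number as a block. As many as 19.75% of all genes tested rose at least as far as Dusp6.

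**Figure D3:**
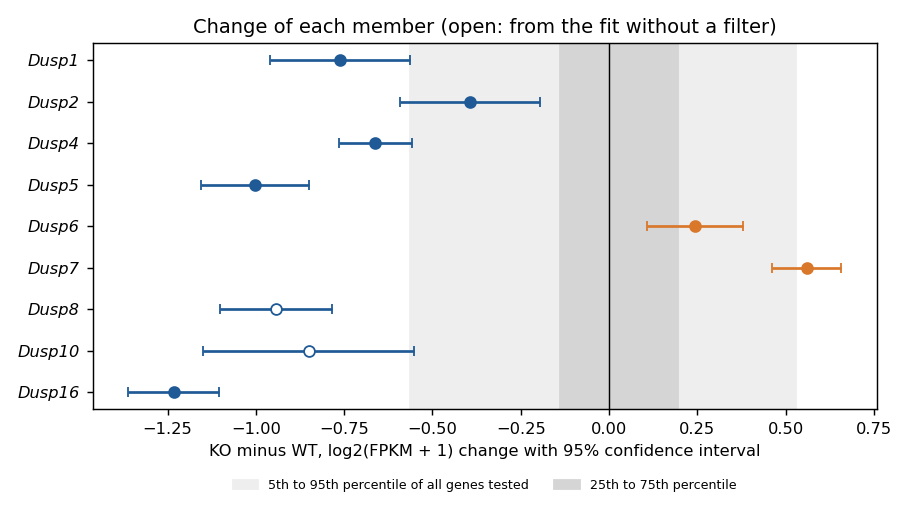
KO minus WT change of log2(FPKM + 1) for each phosphatase gene, with 95% confidence intervals from limma over 6 libraries. Open points (Dusp8, Dusp10) come from the fit without a filter on low values, and the shaded bands hold the 25th to 75th percentile and the 5th to 95th percentile of all genes tested. Dusp16 and Dusp5 lie furthest to the left, and Dusp7 and Dusp6 lie right of 0.

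The mix of phosphatase transcripts was compared next. The 9 genes summed to 175, 163 and 166 FPKM in the WT arm and 121, 117 and 118 FPKM in the KO arm, a KO to WT ratio of 0.708 (two-sided p = 0.1 by exact permutation, the lowest this design gives). Dusp4 held 50.9% ± 0.860 of this sum in the WT arm and 45.2% ± 1.07 in the KO arm (SD, n = 3 each). Dusp7 went from 10.1% ± 0.428 to 21.4% ± 1.08, and Dusp6 from 6.14% ± 0.341 to 10.4% ± 0.447 (SD, n = 3 each). The share of Dusp5 went from 13.8% ± 0.286 to 9.29% ± 0.613, and that of Dusp16 from 6.86% ± 0.108 to 3.64% ± 0.195 (SD, n = 3 each). Dusp2 alone had a share whose arms overlapped, at 5.38% ± 0.385 and 5.60% ± 0.696 (SD, n = 3 each).

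**Figure D4:**
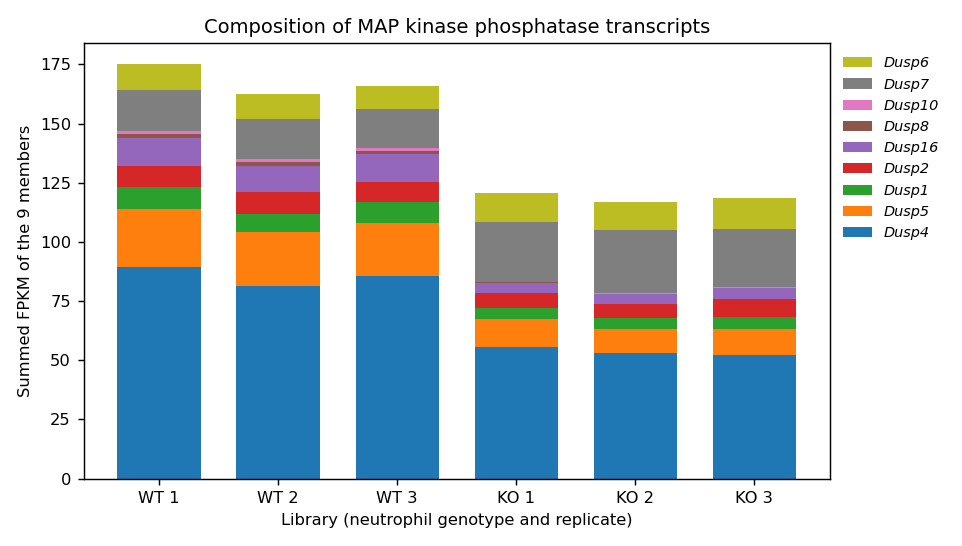
Summed FPKM of the 9 phosphatase genes in each library, stacked by gene, with the axis starting at 0. The KO bars (117 to 121 FPKM) are shorter than the WT bars (163 to 175 FPKM), and Dusp7 fills a larger part of them.

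The order of levels shifted as well. In the WT arm it ran Dusp4, Dusp5, Dusp7, Dusp16, Dusp6, Dusp2, Dusp1, Dusp8 and Dusp10, and of these neighbours only Dusp2 and Dusp1 had overlapping libraries. In the KO arm it ran Dusp4, Dusp7, Dusp6, Dusp5, Dusp2, Dusp1, Dusp16, Dusp8 and Dusp10, where Dusp1 overlapped Dusp16 and Dusp8 overlapped Dusp10. Within libraries, Dusp5 was 2.17 to 2.32 times Dusp6 in the WT arm and 0.852 to 0.952 times Dusp6 in the KO arm, so the nuclear and the cytoplasmic ERK phosphatase changed places. Dusp4 was 4.71 to 5.24 times Dusp7 with WT and 2.00 to 2.20 times with KO neutrophils. These ratios were chosen after the values had been seen and are given as a description.

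The kinases that these phosphatases act on were counted next, and the counts in this and the following lists stand beside 18.8% lower and 24.5% higher (43.3% called) among all genes tested. Of 8 tested MAP kinase genes 3 were lower and 0 higher (median log2 change -0.02, against 0.02 over all genes tested). The lower count was 2 without a filter, with the replicate block and in each fit that left out 1 library, except the one without WT replicate 2. Their 3 smallest p-values belonged to Nlk, Mapk6 and Mapk7, and Nlk, a distant relative of ERK, went from 12.4, 11.8 and 12.6 to 8.72, 9.06 and 9.59 FPKM (log2 change -0.39, adjusted p = 0.000893 by limma). Of the direct substrates of the members, Mapk3, Mapk8, Mapk9 and Mapk14, named after their values were seen, were not called. Mapk3, which encodes ERK1, had a log2 change of 0.01 (SE 0.054). Mapk8 and Mapk9, which encode JNK1 and JNK2, had -0.04 (SE 0.058) and 0.02 (SE 0.04). Mapk14, which encodes p38 alpha, had 5.49, 5.97 and 4.998 FPKM against 19.3, 7.96 and 6.44 FPKM, with KO replicate 1 far from the other KO libraries (log2 change 0.77, adjusted p = 0.13 by limma, SE 0.359).

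Upstream of the kinases, 2 of 7 MAP kinase kinases were lower and 0 higher (median -0.02), with 1 higher when KO replicate 1 was left out. Map2k1, which activates ERK, went from 53.3, 52.6 and 52.1 to 39.4, 39.6 and 38.4 FPKM (log2 change -0.42, adjusted p = 3.63e-05 by limma). Map2k6, which activates p38, went from 4.34, 4.51 and 4.26 to 2.22, 2.07 and 1.68 FPKM (log2 change -0.85, adjusted p = 0.00033 by limma). Of 24 tested kinases one tier above and their partners, 4 were lower and 6 higher (median 0.06), with Map3k20 lower and Map3k1 higher at the smallest p-values. Scaffold genes went both ways, 4 lower and 4 higher of 10 tested, and Arrb1 rose most, from 1.26, 2.75 and 1.10 to 8.76, 7.47 and 9.23 FPKM. The higher scaffold count went from 4 to 2 without WT replicate 2, WT replicate 3 or KO replicate 2.

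Downstream, 3 of 10 kinases activated by MAP kinases were lower and 2 higher (median -0.08). The higher count went from 2 to 1 without a filter, on the TPM scale, with quantile normalization or the replicate block, and without WT replicate 2, WT replicate 3, KO replicate 2 or KO replicate 3. Mapkapk2, the p38 target that stabilizes cytokine mRNAs, went from 168, 167 and 170 to 93.7, 95.4 and 95.02 FPKM (log2 change -0.82, adjusted p = 8.87e-07 by limma). Mknk2 rose by 0.33 and Rps6ka2 had -0.40 on the same log2 scale.

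Other phosphatases were compared with the members. Of 11 tested atypical dual specificity phosphatases, small enzymes of the same fold without a MAP kinase binding domain, 2 were lower (Dusp11 and Dusp14) and 1 higher (Dusp18), which is 27.3% against 43.3% over all genes tested. Without KO replicate 1, 2 were higher. Their median change was 0.01, against -0.66 for the 7 tested members. Of 8 other phosphatases that act on MAP kinases, Ppm1b and Ppp2ca were lower and Ppm1d was higher (median -0.04). The higher count went from 1 to 0 without a filter, on the TPM scale, with the replicate block, and without WT replicate 1, WT replicate 3, KO replicate 1 or KO replicate 3. The named changes in these lists, Dusp14 apart at -0.85, were between -0.23 and 0.52 on the log2 scale.

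Other feedback inhibitors of ERK and transcripts known to follow ERK activity were then counted. Of 7 tested inhibitors 4 were lower and 0 higher (median -0.37). This list holds Ier3, which is an ERK substrate known to prolong ERK phosphorylation rather than to inhibit it, and 3 of the other 6 tested genes were lower. Ier3 went from 311, 316 and 304 to 73.7, 75.3 and 73.5 FPKM (log2 change -2.05, adjusted p = 4.09e-08 by limma), and the receptor inhibitor Errfi1 and the Sprouty gene Spry2 changed by -0.79 and -0.71. Of 16 tested ERK-responsive transcripts 11 were lower and 4 higher (median -0.68), against 18.8% and 24.5% of all genes tested. Phlda1 went from 13.7, 12.5 and 14.1 to 1.11, 1.19 and 1.28 FPKM (log2 change -2.72, adjusted p = 8.68e-07 by limma), Junb changed by -1.42 and Plaur by -0.85. The 4 higher genes were Emp1, Etv5, Egr3 and Ccnd1 (named after their values were seen), and Etv5, an ETS factor induced by ERK, went from 11.4, 11.8 and 11.2 to 17.1, 17.4 and 16.9 FPKM, in the direction of Dusp6 and Dusp7. Its relative Etv4 went the other way, from 5.73, 6.93 and 6.14 to 2.89, 3.496 and 3.69 FPKM. Etv4 too was named after its values were seen.

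Finally, inputs known for Dusp1 were counted. Of 9 tested transcripts known to follow the glucocorticoid receptor, 6 were lower and 1 higher (median -0.27), with Nfkbia at -2.44, Cdkn1a at -0.42 and Mertk at 1.04. The remaining tested genes of this list, named after their values were seen, were Per1 (-0.60), Sgk1 (-0.51), Ddit4 (-0.27) and Fkbp5 (-0.15), which were called lower, and Tsc22d3 (0.16) and Klf9 (-0.04), which were not called. Of 7 tested transcripts known to follow cAMP and its factor CREB, 5 were lower and 1 higher (median -0.97), against 18.8% and 24.5% of all genes tested. Ptgs2 at -5.09, Pde4b at -1.45 and Nr4a1 at -1.15 had the smallest p-values. Ptgs2 and Nfkbia also follow NF-kB, so neither list is particular to its factor. Over all these lists, with each gene counted once, 46 of 117 tested genes were lower and 20 higher, which is 56.4% called against 43.3% of all genes tested. The called share was 93.8%, 77.8% and 85.7% in the ERK-responsive, glucocorticoid receptor and cAMP transcripts. It was 27.3% to 50% in the lists of phosphatases and of kinases with their partners, 80% in the scaffolds and 57.1% in the ERK feedback inhibitors. The pooled share thus does not describe the kinases and phosphatases of the pathway. The genes of these lists were chosen with earlier results known.

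**Figure D5:**
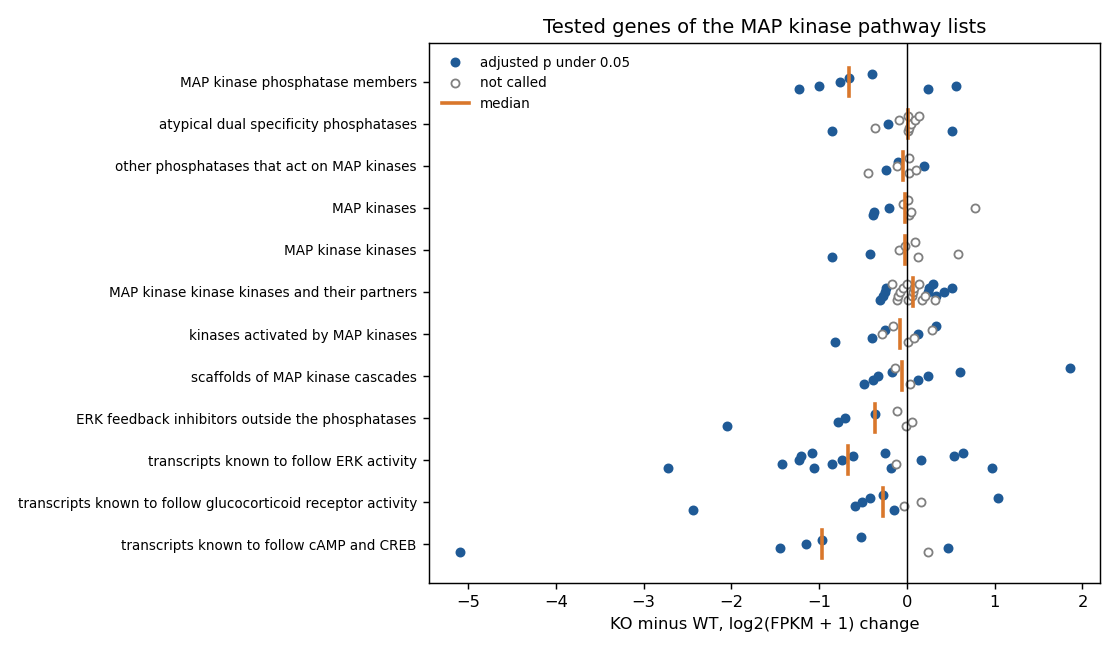
KO minus WT change of log2(FPKM + 1) for each tested gene of the phosphatase family and of 11 MAP kinase pathway lists, filled where the limma adjusted p was under 0.05 and open where not, with the median of each list as a bar. Kinases and atypical phosphatases cluster around 0. The members, the ERK feedback inhibitors and the ERK-responsive, glucocorticoid receptor and cAMP transcripts lie mostly left of it.

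The genes whose profile over the 6 libraries was most like that of Dusp16 and of Dusp7 were sought among 9777 other tested protein-coding genes, by the root mean square difference of centred log2(FPKM + 1). For Dusp16 they were 1110008P14Rik (0.035), Osgin2 (0.038) and Zfp36 (0.049). Zfp36, which encodes the mRNA decay factor tristetraprolin, had 12.7, 12.7 and 13.2 FPKM against 4.92, 4.42 and 4.65 FPKM. For Dusp7 they were Celf2 (0.006), Mylip (0.013) and Ank (0.023). The difference between the arms makes up most of each profile, so these are genes that changed by about the same amount.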

How the data were processed

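RNA-seq was made from 6 libraries of sorted microglia. The submitters' processing notes name fastp 0.17.1, HISAT2 2.1.0, DESeq2 1.18.1 and R 3.4.3. The program that computed FPKM, the genome build and the annotation are not given in the sources used here. The labels and the study's methods name different library kits and sequencers. The authors deposited FPKM values, 1 column per library, without pooling, and no value column was left out.

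Symbols (55154 of 55335 identifiers found), positions and transcript lengths came from GENCODE M21 (GRCm38), possibly not the authors' annotation. Groups and replicate numbers came from the sample titles. The test was limma 3.58.1 in R 4.3.3 (lmFit, eBayes with trend) on log2(FPKM + 1), KO minus WT without covariates, for genes averaging 1 FPKM or more. A change on this scale understates that of low genes. The authors tested counts with DESeq2, so their calls can differ. Single genes also had an exact permutation test, which cannot go below 0.1 here. The fit was tested on simulated data.

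Depth was estimated from the most common step between low FPKM values of single-transcript genes. Between 23.7% and 24.6% of low values were whole fragments within 0.05, against 10.0% by chance, so fragments could not be recovered and no count test was run. Floors of 3 fragments use the shortest coding transcript and cover counting error only.

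The members and lists were chosen with earlier results of these data known. Always named were the 9 members, Dusp9 and Cd177, of each pathway list up to 3 tested genes with the smallest p, and for the largest called fall and rise among members the 3 most similar genes. Other names are said to be chosen after their values were seen, apart from markers. Some genes of these lists are not reported here by name. The list symbols Mp1 and Spry3 matched no identifier. Alternatives were a pseudocount of 0.1, another filter (none, or a mean of 5 FPKM), quantile normalization, median centring, the TPM scale, array weights, a fit without variance trend, a replicate block and leaving out each library.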

Additional observations from a re-analysis of the deposited data

How the results depend on the processing

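The counts of members called, 5 lower and 2 higher, held in all 15 alternatives except that without a filter on low values 7 were lower, since Dusp8 and Dusp10 then entered. For Dusp8 and Dusp10 the log2 changes without a filter were -0.94 and -0.85. With a pseudocount of 0.1 and no filter, chosen after seeing the data, they were -1.96 and -1.999, since a smaller pseudocount enlarges the changes of low genes. Leaving out each library without the filter, also chosen after seeing the data, gave -0.92, -0.96 and -0.95 (WT replicates 1 to 3) and -0.97, -0.929 and -0.929 (KO replicates 1 to 3) for Dusp8, and -0.81, -0.89, -0.85, -0.75, -0.96 and -0.84 in the same order for Dusp10, all with a limma adjusted p under 0.05. No member changed direction under any alternative that tested it. On the TPM scale, 55% of all calls were lower, against 43.4% on the deposited scale, and the median change of all genes went from 0.02 to -0.02, while Dusp6 had 0.21 and Dusp7 0.53. The number of all genes called was 3763 with a mean of at least 5 FPKM and 4082 to 4223 without 1 library, against 4930. Replicate numbers did not pair the libraries, as the correlations of deviations were -0.075, -0.052 and -0.005. Under the replicate block the fit called 4212 genes, and the member counts stayed at 5 lower and 2 higher. Of 623 values under an alternative, 578 were kept as unchanged, but this total includes kinds that could hardly change. Its 54 family shares could not leave their range, since dropping 1 of 3 libraries cannot move a mean by its SD. Its 12 FPKM ratios had a wide range, so that of Dusp10 at 7.14 was still kept. Of the member changes 105 stayed on the same side of the threshold, and 16 were those of Dusp8 and Dusp10 above. Counts were allowed some movement, and 29 small counts within single pathway lists moved further. Most of these that are not named in the report came with a mean of at least 5 FPKM, which tests fewer genes, where 6 ERK-responsive and 3 cAMP transcripts were lower. On the TPM scale 7 genes of the MAP kinase kinase kinase list were lower. The FPKM ratio of Dusp8 was 4.62 to 5.20 and that of Dusp10 3.52 to 7.14 without 1 library (chosen after seeing the data). The edgeR and DESeq2 tests were not run, as whole reads were not recovered. Few fragments of Dusp10 and Dusp8 in the KO arm limit their precision.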

Other observations

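Some pathway genes that were not called had 1 or 2 libraries far from the others of their arm (chosen after their values were seen). Styx, a catalytically inactive relative of the dual specificity phosphatases, had 0.495, 0.617 and 3.32 FPKM in the WT arm and 0.884, 0.515 and 0.716 FPKM in the KO arm. Map2k7, which activates JNK, had 8.43, 9.50 and 7.86 FPKM against 8.90, 16.7 and 15.9 FPKM. Ppm1a, a serine and threonine phosphatase that acts on p38 and JNK, had 16.5, 16.1 and 16.5 FPKM against 14.5, 14.9 and 7.36 FPKM.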
